A study of Mus musculus with 6 samples.

Results

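The 10 genes described here are the prostaglandin pathway genes Pla2g4a, Ptgs1, Ptgs2, Ptges, Ptgis, Ptger1, Ptger2, Ptger4 and Hpgd, together with annexin A1 (Anxa1). They were named by symbol, by a rule that used no measured values but was set with earlier results of these data known. By Ensembl identifier, 9 of them were matched to a row of the 29616 genes in the table. Hpgd, which encodes the enzyme that oxidises prostaglandins to inactive forms, was not analysed here. RNA sequencing compared 3 libraries of bone cells from control C57BL/6 mice with 3 libraries from C57BL/6 mice treated with dexamethasone, a synthetic glucocorticoid. The study's methods give the treatment as 0.08 µg per g of body weight each day over 4 weeks, beginning at 8 weeks of age, with littermates as controls. They describe the cells as positive for Osteocalcin and taken from bones without marrow, and they do not say whether a library was 1 mouse or a pool. The p-values therefore rest on the spread between these libraries, shared in part over genes by the fit, and that spread may be technical in part.

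Prostaglandins are made from arachidonic acid, which the cytosolic phospholipase A2 encoded by Pla2g4a releases from membranes. The cyclooxygenases encoded by Ptgs1 and Ptgs2 turn it into PGH2, and terminal synthases convert PGH2 into PGE2 (Ptges) or prostacyclin (Ptgis). PGE2 acts through receptors that include EP1, EP2 and EP4 (Ptger1, Ptger2 and Ptger4), of which EP2 and EP4 raise cAMP. In bone PGE2 is known to act on both formation and resorption. Annexin A1 is a phospholipid-binding protein long known as a mediator of glucocorticoid action that restrains phospholipase A2 and signals through formyl peptide receptors, and glucocorticoids are known to repress Ptgs2 in many inflammatory settings.

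The regions around the start sites of 3 genes that were differentially expressed upward (Ptgs1, Ptges and Anxa1) and of Ptgs2 are shown first, the last because it encodes the enzyme of the same step as Ptgs1. Each is a RefSeq window of 300 bases, 250 before and 50 after the annotated start, on build GRCm38.p6, written 5′ to 3′ on the gene's strand. The windows are chr2:36230176-36230475 (plus strand) for Ptgs1, chr2:30903248-30903547 (minus) for Ptges, chr19:20390622-20390921 (minus) for Anxa1 and chr1:150099781-150100080 (plus) for Ptgs2. Capitals mark matches to any of 10 motifs searched on both strands.
Ptgs1: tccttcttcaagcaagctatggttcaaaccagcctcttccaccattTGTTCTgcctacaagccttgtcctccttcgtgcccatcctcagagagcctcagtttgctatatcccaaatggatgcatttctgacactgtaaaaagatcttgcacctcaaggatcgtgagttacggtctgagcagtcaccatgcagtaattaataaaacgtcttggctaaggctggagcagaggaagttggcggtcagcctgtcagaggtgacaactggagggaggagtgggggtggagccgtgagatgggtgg
Ptges: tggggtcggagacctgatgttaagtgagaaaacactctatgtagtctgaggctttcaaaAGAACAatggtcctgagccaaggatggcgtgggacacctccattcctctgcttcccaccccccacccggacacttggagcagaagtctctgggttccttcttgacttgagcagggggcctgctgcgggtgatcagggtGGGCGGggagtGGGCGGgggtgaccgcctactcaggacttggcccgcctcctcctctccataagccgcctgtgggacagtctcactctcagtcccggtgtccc
Anxa1: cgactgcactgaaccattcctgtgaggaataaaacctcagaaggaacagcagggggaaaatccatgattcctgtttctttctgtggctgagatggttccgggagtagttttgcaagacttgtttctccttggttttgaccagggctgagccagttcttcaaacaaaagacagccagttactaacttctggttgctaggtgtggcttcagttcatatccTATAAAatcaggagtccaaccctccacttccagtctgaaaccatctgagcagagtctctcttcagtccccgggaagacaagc
Ptgs2: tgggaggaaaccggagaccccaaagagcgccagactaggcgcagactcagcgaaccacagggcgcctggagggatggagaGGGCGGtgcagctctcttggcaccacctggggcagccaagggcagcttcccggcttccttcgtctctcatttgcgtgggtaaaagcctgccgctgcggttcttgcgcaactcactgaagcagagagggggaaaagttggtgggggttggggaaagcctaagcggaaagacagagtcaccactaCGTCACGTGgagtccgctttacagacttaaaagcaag

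A single arm of the glucocorticoid response element, AGAACA, stood at bases 60 to 65 of the Ptges window and, on the other strand, at bases 47 to 52 of the Ptgs1 window. This arm occurred in 19.0% of all 32851 RefSeq windows of this length. The 8 genes described here that have a window have 9 windows together. The arm was in a single window of each of 4 genes, Pla2g4a and Ptger2 being the others, and Pla2g4a has a further window without it. The whole element, AGAACA and its reverse complement TGTTCT spaced by 3 bases, was in none of the 4 windows shown and in 0.00913% of all windows. The Anxa1 window held a TATA box (TATAAA, 13.6% of all windows) at bases 219 to 224. The Ptgs2 window held an E-box (CACGTG, 7.15%) at bases 267 to 272, which overlapped by 2 bases with a cAMP response element arm (TGACG, 20.8%) read on the other strand. GC boxes (GGGCGG, 35.7%) were found once in the Ptgs2 window and at 2 places in that of Ptges. The remaining motifs, TGACGTCA (1.79%), TGANTCA (7.81%), CCAAT (37.4%) and NF-kB (8.46%), had no match in these 4 windows. The Ptgs2 window had 16 CpG dinucleotides and 59.3% G and C, against 3 and 47.3% for Anxa1 and a median of 7 and 52.7% over all windows. A match is a string of letters and was not tested as a binding site.

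Total depth was 72596611 to 89910728 reads per library, recovered from the deposited normalized counts (read counts divided by 1 size factor per library). The test, by limma, took in each gene whose mean reached 10 normalized counts. A gene is called differentially expressed here when its adjusted p-value lay under 0.05 and its log2 fold change (log2FC, dexamethasone minus control) was 1 or more, or -1 or less. Of the 8 genes listed to check the treatment, 7 were in the table and 6 were differentially expressed, all higher, with Fkbp5 with a log2FC of 4.41. Of 9 osteoblast markers, 8 were lower with dexamethasone and Spp1 was higher, and Osteocalcin itself (Bglap) had a mean of 107 normalized counts in the control and 12.2 in the dexamethasone libraries. The summed level of 6 pan-hematopoietic genes was 94.0 to 129 normalized counts in the control and 776 to 823 in the dexamethasone libraries, and of the 4 tested, Cd53 and Itgb2 were differentially expressed upward and Laptm5 and Coro1a downward. That of 7 smooth muscle and pericyte genes was 170106 to 179454 and 42294 to 46205, in the same order, with Acta2, at means of 144918 and 12449, the 1 gene of 6 tested that was differentially expressed (median log2FC -0.0076 over the 6). The part of these other cell types in the results below was not tested, and in bulk libraries fewer cells of a type and less RNA per cell cannot be told apart.

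All 9 genes measured passed the filter on low values. Of these, Ptgs1, Ptges and Anxa1 were differentially expressed upward, and Ptgis downward. Among all 17442 genes tested, 11.7% were differentially expressed upward and 10.6% downward. At an adjusted p-value under 0.05 alone, Pla2g4a and Ptger4 were also higher and Ptgs2 also lower, so that 5 were higher and 2 lower. By that rule 37.2% of all genes were higher and 35.2% lower, together 72.5%. The groups did not overlap for 7 of the 9 genes and for 74.7% of all genes. The median log2FC of the 9 genes was 0.54, against 0.00071 over all genes tested.

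**Figure D1:**
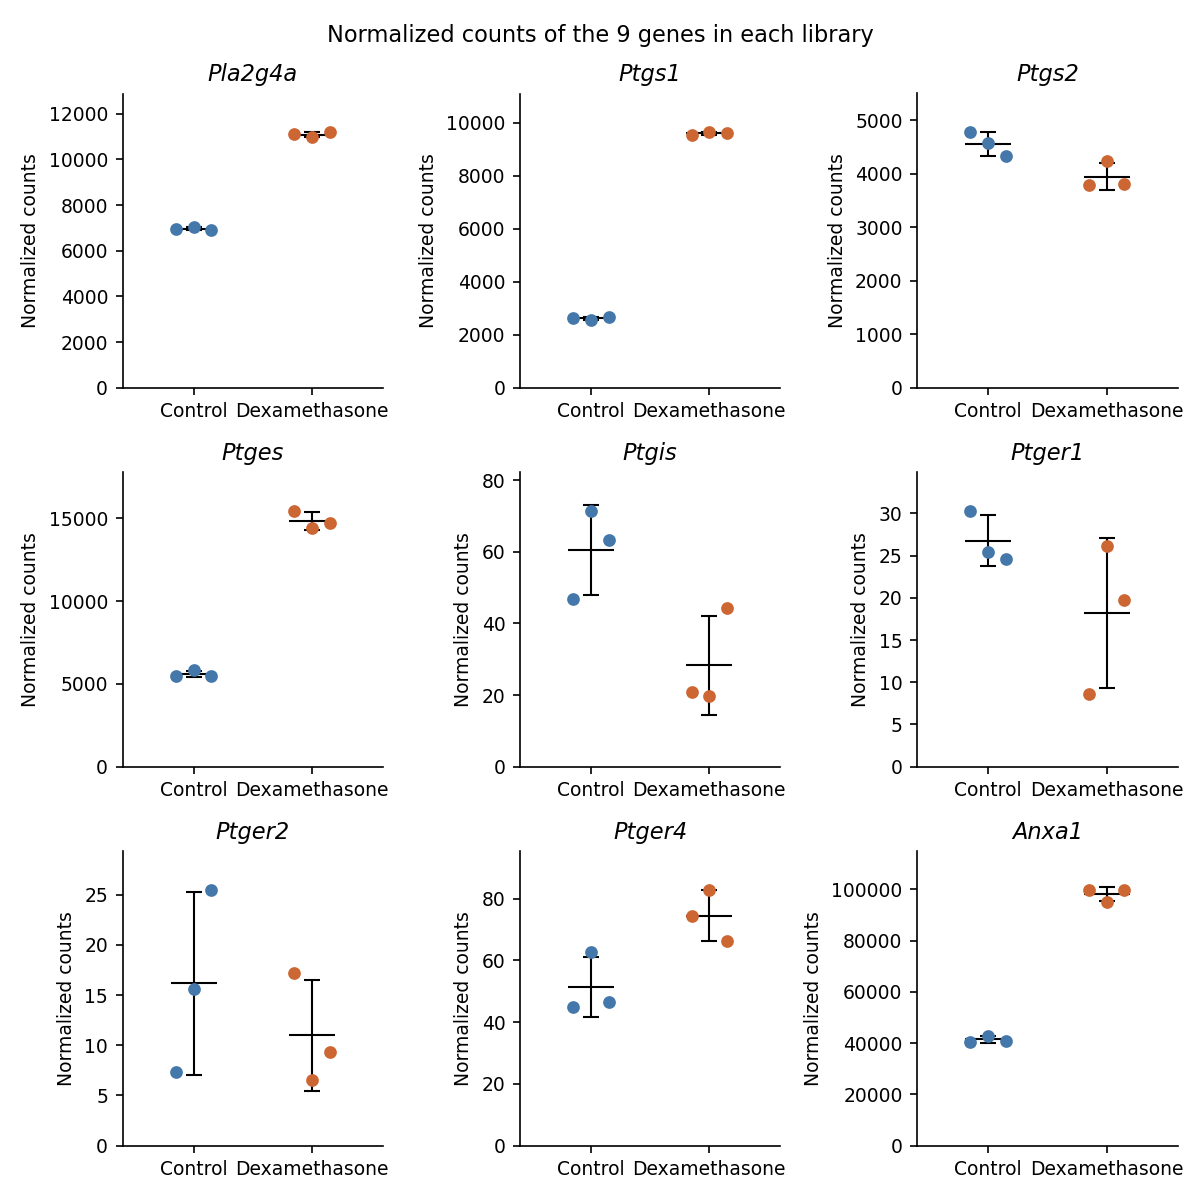
Normalized counts (vertical axes, each from 0) of the 9 genes in the 3 control (blue) and 3 dexamethasone (orange) libraries, with horizontal bars for means and error bars for 1 SD. The groups stand far apart for Ptgs1, Ptges, Anxa1 and Pla2g4a, stand close for Ptgs2, and overlap for Ptger1 and Ptger2.

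Pla2g4a, at the head of the pathway, had 6969, 7040.3 and 6897 normalized counts in the control libraries (replicates 1 to 3, an order kept below) against 11098, 10961 and 11205 with dexamethasone. Every dexamethasone library was above every control library, with coefficients of variation of 1.03% and 1.10% in the control and dexamethasone groups. The log2FC of 0.67 (SE 0.0338, with an adjusted p of 4.15e-15 by limma) had a 95% interval of 0.60 to 0.74, all of it under the cut-off of 1.

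Of the cyclooxygenase genes, Ptgs1 rose past the cut-off and Ptgs2 did not reach it. Ptgs1, known as the form expressed without stimulus in most tissues, had 2622, 2566 and 2662 normalized counts in the control libraries and 9562, 9664 and 9616 in the dexamethasone libraries. It rose from 2616 ± 48.3 (SD, n = 3) to 9614 ± 51.2 (SD, n = 3), which is 3.67-fold, with a log2FC of 1.88 (SE 0.0358, an adjusted p of 7.22e-24 by limma). This was the 882nd largest increase of the 17442 genes. Ptgs2, known as the form induced by cytokines and mechanical load, had 4783, 4572 and 4325 normalized counts in the control libraries and 3788, 4234 and 3817 in the dexamethasone libraries. All dexamethasone values were below all control values, but dexamethasone replicate 2 and control replicate 3 lay close together. The log2FC of -0.21 (SE 0.0454, with an adjusted p of 0.000231 by limma) had a 95% interval of -0.30 to -0.12, far from the cut-off of -1.

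Within a library the ratio of the 2 genes does not depend on the size factor. The log2 ratio of Ptgs2 to Ptgs1 was 0.87, 0.83 and 0.70 in the control libraries and -1.34, -1.19 and -1.33 in the dexamethasone libraries. Ptgs2 therefore had more counts than Ptgs1 in each control library and fewer in each dexamethasone library. The mean ratio differed by -2.09, and the exact two-sided permutation test gave p = 0.1, the smallest that 3 against 3 libraries allow (0.133 adjusted over the 4 ratios computed). Per kb of exon, Ptgs1 made up 39.3% to 42.1% of the summed level of both genes in the control libraries and 72.9% to 74.9% in the dexamethasone libraries.

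Some limits attach to Ptgs1. On the opposite strand, Gm43621 overlaps 3.81% of its exon bases in the GENCODE M21 annotation, and the strand setting of the count is not given in the sources used here. Gm43621 had 12.7 to 29.9 normalized counts in the control and 75.4 to 110.1 in the dexamethasone libraries, small beside those of Ptgs1. Mast cells and platelets are known sources of Ptgs1 transcripts. The 3 mast cell markers measured of 7 summed to at most 3.67 normalized counts in any control and 4.36 in any dexamethasone library, with Kit and Cma1 at 3 reads or fewer in every library. The 6 measured markers of megakaryocytes and platelets, of 7 listed, summed to 682 to 754 normalized counts in the control and 514 to 580.0 in the dexamethasone libraries. Of the 3 tested, Gp1ba was differentially expressed downward and the other 2 were not called. The 7 measured endothelial markers, of 8 listed, summed to 2168 to 2299 normalized counts in the control and 3294 to 3895 in the dexamethasone libraries. Of the 5 tested, 1 was differentially expressed upward and 0 downward, and 4 were higher at an adjusted p-value under 0.05 alone. Cdh5 and Tie1 had 3 reads or fewer in every library. The part of mast cells, platelets and endothelial cells in the Ptgs1 values was not tested.

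The terminal synthases went in opposite directions. Ptges, which encodes the inducible microsomal PGE2 synthase, had 5497, 5837 and 5463 normalized counts in the control libraries and 15451, 14401 and 14728 in the dexamethasone libraries. It rose from 5599 ± 207 (SD, n = 3) to 14860.2 ± 537 (SD, n = 3), which is 2.65-fold, with a log2FC of 1.41 (SE 0.0378, an adjusted p of 8.14e-21 by limma). The lowest dexamethasone library was thus well above the highest control library. Ptgis, the prostacyclin synthase, was a gene of few reads, with 51, 73 and 72 reads in the control and 22, 18 and 38 in the dexamethasone libraries. Its mean fell from 60.5 normalized counts (SD 12.5, n = 3) to 28.3 (SD 13.8, n = 3), with a log2FC of -1.15 (SE 0.273, an adjusted p of 0.000614 by limma). The groups came close at 44.2 in dexamethasone replicate 3 and 46.8 in control replicate 1. The log2 fold change was -0.99 without dexamethasone replicate 1 and -0.94 without dexamethasone replicate 2, short of the cut-off with adjusted p-values of 0.00287 and 0.00273 from limma, and -1.51 without dexamethasone replicate 3.

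**Figure D2:**
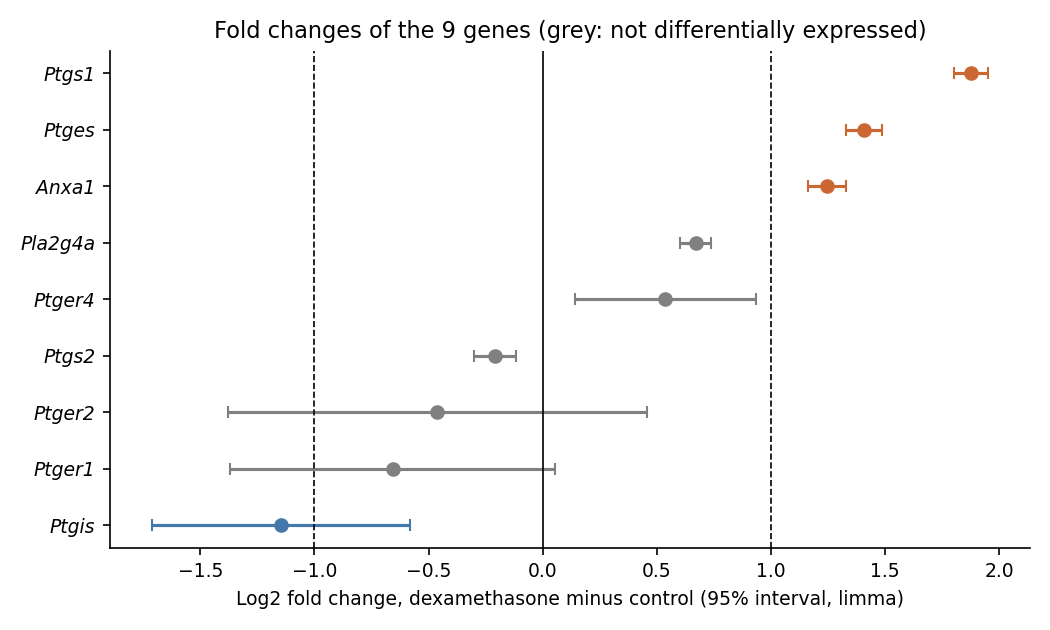
Log2 fold change of each gene, dexamethasone minus control (horizontal axis), with 95% intervals from limma and dashed lines at the cut-offs of -1 and 1. Orange, blue and grey mark genes that were higher, lower and not differentially expressed. Ptgs1 leads at 1.88, Ptgs2 lies at -0.21, and the intervals of the receptor genes and of Ptgis are wide.

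The log2 ratio of Ptges to Ptgis was 6.85, 6.33 and 6.41 in the control libraries and 9.46, 9.45 and 8.35 in the dexamethasone libraries. The groups did not overlap, the difference was 2.56, and the exact permutation test gave p = 0.1 (0.133 adjusted over 4 ratios). The SD of this ratio was 0.28 in the control and 0.64 in the dexamethasone libraries, where replicate 3 had the lowest ratio.

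Transcripts of the PGE2 receptors described here were few in both groups. Ptger4 had 49, 64 and 53 reads in the control and 78, 76 and 57 in the dexamethasone libraries, or 45.0, 62.6 and 46.6 against 74.4, 82.8 and 66.3 normalized counts. The groups did not overlap, although control replicate 2 and dexamethasone replicate 3 were near each other. The log2 fold change was 0.54 (SE 0.191, with an adjusted p of 0.0149 by limma), with a 95% interval of 0.14 to 0.93. Its adjusted p-value exceeded 0.05 in 4 alternatives. They were the scaling to the same total and the fits without control replicate 1, control replicate 3 and dexamethasone replicate 2, with adjusted p-values of 0.0542, 0.0607, 0.0523 and 0.0607 from limma.

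Ptger2 had 8, 16 and 29 reads in the control and 18, 6 and 8 in the dexamethasone libraries. The groups overlapped, and no difference was detected. The log2FC of -0.46 (adjusted p of 0.358 by limma) had a 95% interval of -1.38 to 0.46. It was -0.0717 without control replicate 3 and -0.90 without control replicate 1. Ptger1 had 33, 26 and 28 reads in the control and 9, 24 and 17 in the dexamethasone libraries. These groups overlapped as well, at 26.2 normalized counts in dexamethasone replicate 2 against 24.6 in control replicate 3. Its log2FC of -0.66 (adjusted p of 0.0908 by limma) had a 95% interval of -1.37 to 0.055. It was -0.97 without dexamethasone replicate 2 (limma adjusted p = 0.0174) and -0.22 without dexamethasone replicate 1 (limma adjusted p = 0.541).

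Overlapping genes limit the receptor values further. Opposite-strand genes cover 16.5% of the exon bases of Ptger4, 4.74% of those of Ptger2 and 6.08% of those of Ptgis. The log2 ratio of Ptger4 to Ptger2 was 2.46, 1.93 and 0.85 in the control and 2.05, 3.48 and 2.71 in the dexamethasone libraries. These ranges overlapped (difference 1.00, exact permutation p = 0.2).

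Compared per kb of exon, the genes fell into a high and a low class in both groups. Anxa1 led in the control libraries with 14228 ± 434 normalized counts per kb, followed by Ptges at 1424 ± 52.5, Pla2g4a at 1090.4 ± 11.2, Ptgs2 at 996 ± 50.03 and Ptgs1 at 674 ± 12.4 (SD, n = 3 for each). Ptgis at 23.6 ± 4.88, Ptger4 at 7.73 ± 1.47, Ptger1 at 4.91 ± 0.563 and Ptger2 at 3.11 ± 1.75 made up the low class. In this order the only neighbours whose libraries overlapped were Ptger1 and Ptger2. In the dexamethasone libraries Ptgs1 moved from the fifth to the third place, at 2475 ± 13.2 normalized counts per kb, above Pla2g4a at 1735 ± 19.1 and Ptgs2 at 862 ± 54.4. Anxa1 at 33706 ± 962 and Ptges at 3780.2 ± 137 kept the leading places. Ptger4 at 11.2 ± 1.25 and Ptgis at 11.01 ± 5.38 overlapped, as did Ptger1 at 3.33 ± 1.63 and Ptger2 at 2.12 ± 1.06.

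**Figure D3:**
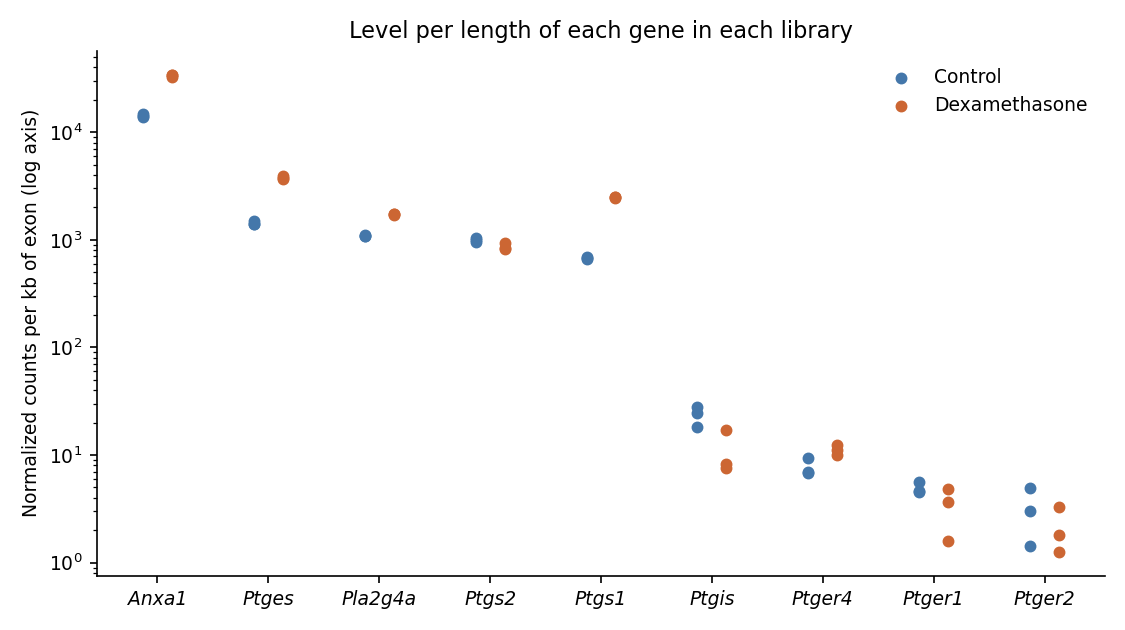
Normalized counts per kb of exon on a log axis for the 9 genes, ordered by their control mean, with 1 point per library (blue, control; orange, dexamethasone). Anxa1, Ptges, Pla2g4a, Ptgs2 and Ptgs1 form the upper class, with Ptgs1 at 661 or more in every library, and Ptgis and the 3 receptor genes form the lower class.

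Anxa1 was by far the most abundant of the genes and ranked 93rd of the 17442 genes tested by mean normalized count. It had 40581, 42870.3 and 40801 normalized counts in the control libraries and 99715, 94887 and 99755 in the dexamethasone libraries. The rise from 41417 ± 1263 (SD, n = 3) to 98119 ± 2799 (SD, n = 3) was 2.37-fold, with a log2FC of 1.24 (SE 0.0402, an adjusted p of 4.02e-19 by limma). Anxa1 took 0.0525% to 0.0540% of all reads in the control and 0.115% to 0.118% in the dexamethasone libraries.

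The other annexins went in both directions. Of 10 tested, 1 was differentially expressed upward and none downward, while at an adjusted p-value under 0.05 alone 4 were higher and 3 lower, and their median log2 fold change was 0.13. Anxa5 and Anxa2 had the highest means of the other annexins along with log2 fold changes of 1.02 (limma adjusted p = 7.11e-18) and 0.92 (limma adjusted p = 2.75e-16). The call of Anxa5 was lost at 0.91 when libraries were scaled to the same total, at 0.97 after quantile normalization and at 0.997 with edgeR, and the median of the list went to 0.0182 and -0.0411 under the same total and quantile normalization. Anxa1 made up 21.9% ± 0.207 of all annexin counts in the control and 31.0% ± 0.239 in the dexamethasone libraries (SD, n = 3). The log2 ratio of Anxa1 to all annexins was -2.18, -2.18 and -2.21 in the control and -1.68, -1.69 and -1.70 in the dexamethasone libraries, a difference of 0.50 without overlap (exact permutation p = 0.1, 0.133 adjusted over 4 ratios).

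Among annexin partners, S100a6 rose with a log2FC of 1.32 and an adjusted p of 3.44e-19 by limma. S100a11, which encodes the known partner of annexin A1, was at 17326 ± 415 and 20404 ± 802 normalized counts (SD, n = 3), with a log2FC of 0.24. The formyl peptide receptor genes Fpr1 and Fpr2, the receptors through which secreted annexin A1 is known to act, had mean normalized counts of 3.35 and 2.19 in the control and 4.21 and 1.84 in the dexamethasone libraries and were under the filter (named after their values were seen).

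**Figure D4:**
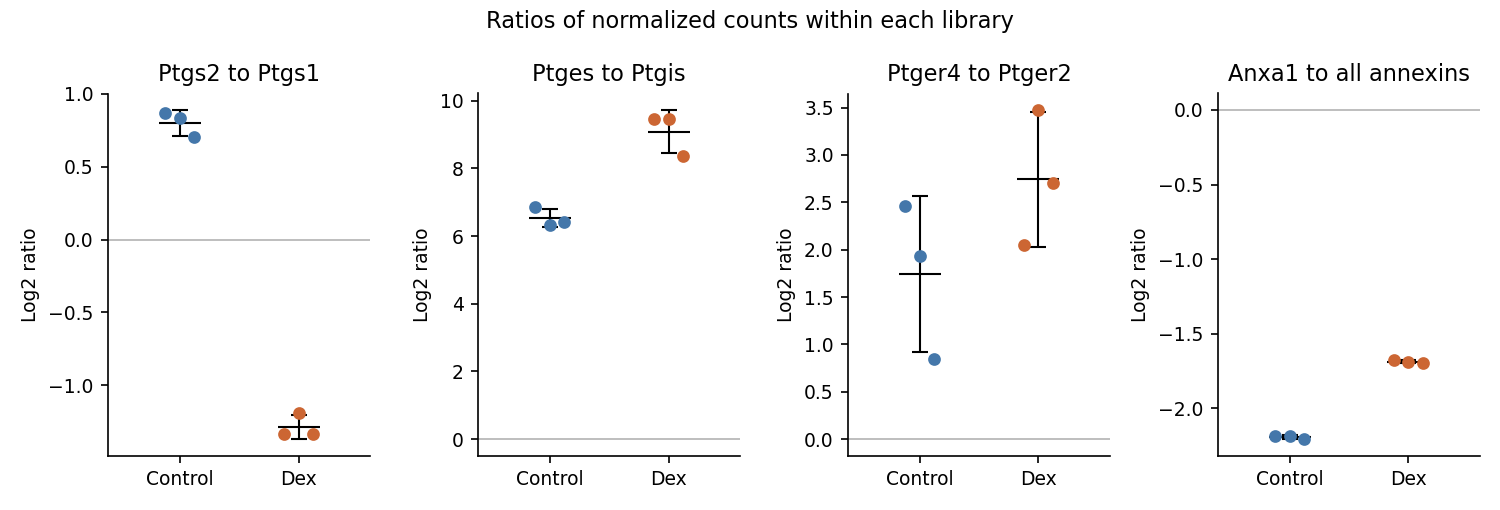
Log2 ratio of normalized counts within each library for 4 pairs (control, blue; dexamethasone, orange), with bars for means and error bars for 1 SD. The Ptgs2 to Ptgs1 ratio lies above 0 in all control and below 0 in all dexamethasone libraries, and only the Ptger4 to Ptger2 ratio overlaps between the groups.

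Of 11 other phospholipase A2 genes tested, 3 were differentially expressed upward and 1 downward, with a median log2FC of 0.33. Pla2g4c, a further cytosolic form, rose from 47.7 normalized counts (SD 18.5) to 242 (SD 15.1, n = 3 each), and Pla2g7, which encodes the secreted platelet-activating factor acetylhydrolase, from 218 ± 22.8 to 744 ± 87.9 (SD, n = 3). Pla2g16 fell from 5494 ± 218 to 1807 ± 70.0 (SD, n = 3), with a log2FC of -1.60 and an adjusted p of 6.21e-21 by limma. Pnpla8, with Pla2g16 the most abundant of the list, was at 0.16, and at -0.0214 after quantile normalization. Pla2g2e, named after its values were seen, was the remaining call at 1.03, and it was under the cut-off at 0.86 with a pseudocount of 5, 0.93 with the same total, 0.92 without control replicate 3 and 0.95 without dexamethasone replicate 1.

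Of 11 genes of arachidonate supply and recycling, 3 were differentially expressed upward and none downward. By adjusted p-value alone 10 were higher, against 37.2% of all genes tested. Among these, Acsl3, named after its values were seen, was at 0.11, and at -0.0052 with the same total and -0.0736 after quantile normalization. The median log2FC of the list was 0.52. Acsl4, the acyl-CoA ligase with a preference for arachidonate, rose from 5315 normalized counts (SD 105) to 14738 (SD 271, n = 3 each), with a log2FC of 1.47 and an adjusted p of 5.65e-22 by limma. Dagla, a diacylglycerol lipase, rose with a log2FC of 1.32. Faah, which breaks down anandamide, was at 1.03, and under the cut-off at 0.92 with the same total, 0.997 with edgeR, 0.98 without control replicate 1 and 0.99 without control replicate 2. The desaturases Fads1 and Fads2, with the highest means of the list, were at 0.52 and 0.98.

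The other prostanoid synthases did not follow Ptges past the cut-off. Of 7 tested, none was differentially expressed upward and 2 were downward (4 and 2 at an adjusted p-value under 0.05 alone). Ptges3, which encodes the cochaperone p23 that also has PGE2 synthase activity, was at 15230.4 ± 221 and 25925 ± 93.6 normalized counts (SD, n = 3), with a log2FC of 0.77, and Akr1b3, an aldose reductase, was at 0.51. Cbr1, a carbonyl reductase that can convert PGE2 to PGF2α, fell from 256 normalized counts (SD 13.8) to 79.4 (SD 22.9, n = 3 each), and Fam213b, named after its values were seen, had a log2FC of -1.58.

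Receptors of other prostanoids went in both directions. Ptgfr, the PGF2α receptor, had 6074, 6433 and 6641 normalized counts in the control libraries and 1064, 1012 and 916 in the dexamethasone libraries. It fell with a log2FC of -2.68 (SE 0.0502, an adjusted p of 5.08e-24 by limma), and the groups were far apart. Ptgir, the prostacyclin receptor, named after its values were seen, went the other way, from 23.9, 17.6 and 20.2 to 106, 110.1 and 123 normalized counts, with a log2FC of 2.41 and an adjusted p of 1.31e-10 by limma. Ptgfrn, which encodes a protein that associates with the PGF2α receptor, was at -0.37. Of 4 receptors tested in this list, 1 was thus differentially expressed in each direction.

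Of 6 genes of prostaglandin transport and degradation, 2 were differentially expressed upward and none downward, with a median log2FC of 0.48. Slco2a1, the prostaglandin uptake transporter, had 51.4, 39.1 and 39.5 normalized counts in the control and 280.4, 241 and 229 in the dexamethasone libraries, with a log2FC of 2.51 and an adjusted p of 1.93e-13 by limma. Every dexamethasone value was far above every control value. Slco3a1, a related transporter, rose with a log2FC of 1.57. Abcc4, an exporter of prostaglandins, was at 0.67, and Ptgr1, a reductase of prostaglandin metabolites, at 0.16. These lists, with those of annexins and their partners and of leukotriene genes, held 56 genes tested. Of them, 11 were differentially expressed upward and 7 downward, with a median log2 fold change of 0.28. Among all 17442 genes tested, 11.7% were upward and 10.6% downward, the shares to set beside the count of each list. By an adjusted p-value under 0.05 alone these shares were 37.2% and 35.2%.

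**Figure D5:**
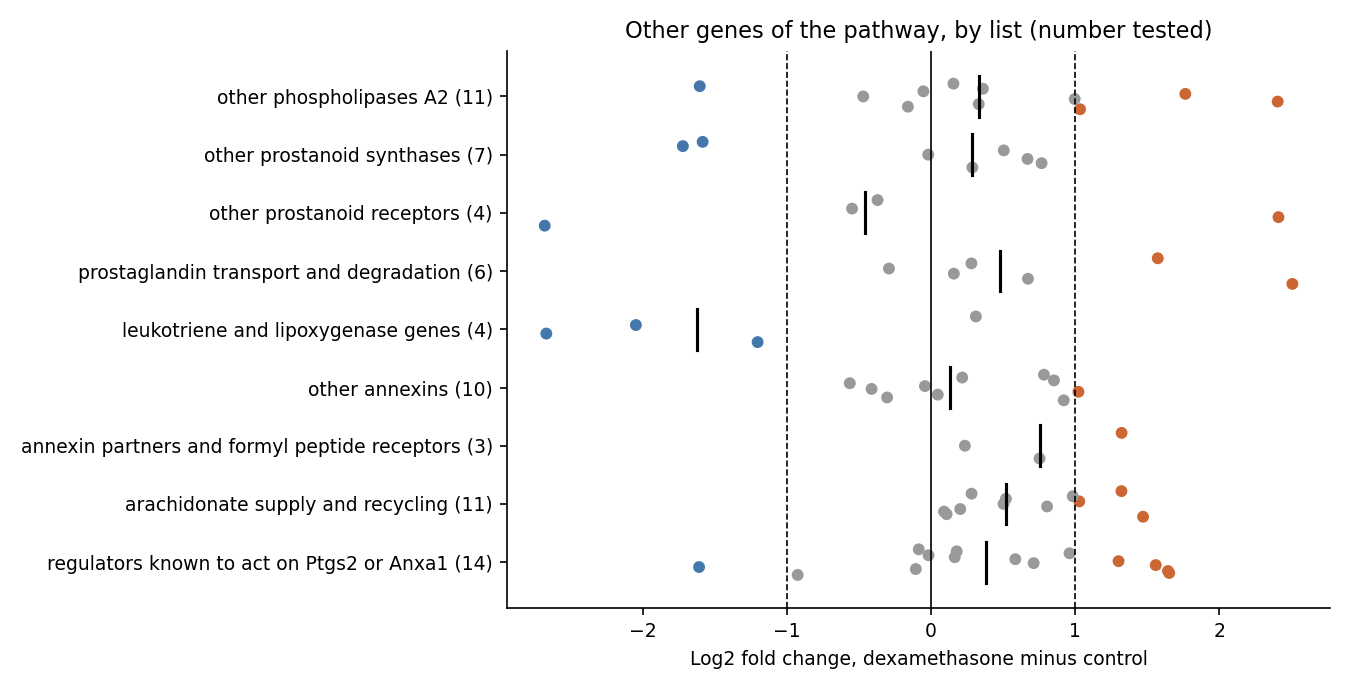
Log2 fold change, dexamethasone minus control, of each tested gene (points) in the other lists of the pathway and its regulators, with the number tested in brackets, black bars for list medians and dashed lines at -1 and 1. Orange and blue points were differentially expressed upward and downward. The list medians lie between -1.62 for leukotriene genes and 0.75 for annexin partners.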

How the data were processed

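RNA was sequenced in 3 control and 3 dexamethasone libraries made with a stranded mRNA kit. The authors aligned and counted the reads per gene with STAR 2.7.10a, and the submitters' processing notes name the build GRCm39. The annotation release and the strand setting are not given in the sources used here. The authors then divided the counts by the size factors of DESeq2 1.36.0, and this signal (normalized counts) was deposited. Dividing by what 1 read was worth in a library turned 100% of values into whole reads (tolerance 1e-06), in all 72596611 to 89910728 reads per library. Intervals and p-values from limma rest on the spread between libraries, which limma draws towards that of genes of similar level. In all, 0 columns were left out.

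Gene symbols, exon lengths and overlaps came from GENCODE M21 (GRCm38) and start-site windows from RefSeq (GRCm38.p6), and no coordinates were carried between builds. Some overlaps between genes are not reported here. Each 75-base window of the transcripts of the genes described occurs in no other gene (100%).

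Log2(normalized count + 1) was fitted with limma 3.58.1 (lmFit, eBayes with trend) in R 4.3.3. The 17442 genes whose mean reached 10 were included, and p-values were adjusted by Benjamini-Hochberg over all of them. The added 1 makes fold changes of genes with few reads smaller. Ratios of genes within a library were compared with an exact two-sided permutation test (SciPy 1.17.1). The ratio of Hpgd to the cyclooxygenases was not computed. Results were recomputed with pseudocounts of 0.5 and 5, other filters, other scalings, limma without trend, a replicate block and each library left out, and the whole reads were tested with DESeq2 1.42.0 and edgeR 4.0.16. The methods were tested on simulated data. Chi-square per degree of freedom between replicate libraries was 3.27 to 26.1, above sampling noise.

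Beside the genes described, those named are, per list, the differentially expressed genes whose mean reached 100 (the 5 of largest change at most) and the 2 of highest mean, and markers where a result touches them. Others are marked in the text as named after their values were seen. The genes, lists and tests were chosen with earlier results of these data known.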

Additional observations from a re-analysis of the deposited data

How the results depend on the processing

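The calls of Ptgs1, Ptges and Anxa1 held under all 18 alternative fits. Their log2 fold changes ranged from 1.70 to 1.89, from 1.20 to 1.44 and from 1.13 to 1.27. No gene described changed sign in any fit. Without the trend, the limma adjusted p-values of all 9 genes were larger. They were 1.17e-06 for Ptgs1, 2.01e-05 for Pla2g4a, 0.0319 for Ptgs2 and 0.0318 for Ptgis. By construction, the number of differentially expressed genes went from 3894 (2037 higher, 1857 lower) to 2170 (1350 and 820) at a mean of at least 100 and to 12645 (6497 and 6148) at an adjusted p-value under 0.05 alone. With the latter rule 5 of the 9 genes were higher and 2 lower, as Pla2g4a (0.67), Ptgs2 (-0.21) and Ptger4 (0.54) gained a call. Leaving out 1 library moved Ptgis between -1.51 and -0.94 and the count of genes called lower between 0 and 1, with 0 without dexamethasone replicate 1 and without dexamethasone replicate 2. That count was also 0 at a mean of at least 100, where Ptgis, Ptger1, Ptger2 and Ptger4 gave no value, and Ptger1 and Ptger2 gave none with at least 10 in every library. Scaling to the same total shifted the median of all genes to -0.11. Under that scaling, without allowance for the shift, Ptgs1 was at 1.76, Ptges at 1.29, Anxa1 at 1.13, Pla2g4a at 0.56, Ptgs2 at -0.32 and Ptgis at -1.26. Deviations of control and dexamethasone libraries with the same replicate number correlated at -0.0999, -0.105 and -0.0199. With deviations taken within groups of 3 libraries, these values cannot decide whether the libraries were paired. A fit that took the replicate block into account had 3897 calls, 2035 upward and 1862 downward, and 3 of the genes described remained higher and 1 lower. All 4 ratios moved by less than 1 SD under other pseudocounts and without any 1 library. Ptgis and the receptor genes had 6 to 78 reads per library and wide intervals. The part of read number and of other spread between libraries in that width was not tested.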

Other observations

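Of 14 genes known to act on Ptgs2 or Anxa1 expression, 4 were differentially expressed upward and 1 downward, with a median log2 fold change of 0.38. Tsc22d3, which encodes the glucocorticoid-induced leucine zipper, rose with a log2FC of 1.65 and an adjusted p of 6.70e-23 by limma, and Dusp1, a phosphatase of MAP kinases, rose from 480 ± 16.5 to 1504 ± 111 (SD, n = 3) normalized counts. The mRNA-destabilizing factors of the Zfp36 family went apart. Zfp36l2 rose with a log2 fold change of 1.56, Zfp36l1 fell with one of -1.61, and Zfp36, named after its values were seen, was at 896 ± 42.7 and 832 ± 40.3 (SD, n = 3) normalized counts (limma adjusted p = 0.119). Cebpb, a transcription factor that binds the Ptgs2 promoter in other cells, rose from 1989 ± 61.2 to 4915 ± 437 (SD, n = 3) normalized counts. Nr3c1, the glucocorticoid receptor, was at 20137 ± 628 and 10607 ± 219 (SD, n = 3) normalized counts, and its log2FC of -0.92 passed the cut-off at the same total (-1.04).

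In the lipoxygenase branch, which makes leukotrienes and related lipids from the same arachidonic acid, 4 of the 13 genes listed had enough reads to be tested. Lta4h, the leukotriene A4 hydrolase, was at 5886 ± 23.2 and 7307 ± 120 (SD, n = 3) normalized counts. Alox12, Aloxe3 and Alox8 were differentially expressed downward at log2 fold changes of -1.20, -2.67 and -2.05, with at most 46 reads in any library, and the last 2 were named after their values were seen. Alox5, the entry enzyme of the leukotrienes, had mean normalized counts of 7.17 in the control and 6.21 in the dexamethasone libraries and was not tested (named after its values were seen).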
